A study of Arabidopsis thaliana with 40 samples.

Results

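The genes described here are 42 nuclear genes of Arabidopsis thaliana for subunits of photosystem I and photosystem II and for their light-harvesting antennae. They were chosen by locus from the nuclear LHCA, LHCB, PSA and PSB genes, with earlier results of these data known. The list need not be complete, and makes up 42 of the 27655 loci in the deposited tables. By role, 9 encode proteins of the LHCII trimers, 5 encode the minor antenna of photosystem II and 6 encode the antenna of photosystem I. A further 12 encode photosystem I subunits, 5 encode proteins of the oxygen-evolving complex and 5 encode other photosystem II proteins. Root and shoot (the whole aerial part) of seedlings were sequenced separately as mRNA, with 4 libraries for each of 5 genotypes, which gives 40 libraries in 10 groups. By 1 label the seedlings were 12 d old at harvest and by another 13 days past sowing; all groups grew on agar plates under long days with no treatment.

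The line nobiro6 is labelled as a suppressor mutant in the bz1728 background, and the labels give its added change only as "a". The line bz1728 combines T-DNA insertions in BZIP17 and BZIP28 (SALK_004048 and SALK_132285), which encode membrane-held transcription factors that act in the response to unfolded proteins. The lines nbr6-t1 (GABI_172C03) and taf12-t1 (WiscDsLoxHs044_12E) are single T-DNA lines, known for insertions in TAF12B and TAF12, paralogous subunits of the general transcription factor TFIID. Wild-type Col-0 (wt) is the reference line and carries none of these changes. Each mutant genotype rests on 1 line. The labels do not say whether the libraries of a group came from separate sowings or how many seedlings were pooled, so p-values measure only the spread between these samples.

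The reaction-centre cores of both photosystems are encoded in the chloroplast, while most outer subunits and all antenna proteins are encoded in the nucleus and imported. LHCB proteins bind chlorophyll around photosystem II and LHCA proteins around photosystem I. The PSBO, PSBP and PSBQ proteins shield the manganese cluster that oxidises water, and PSBS triggers the dissipation of excess light as heat. These genes are known to be activated by light and by the GLK transcription factors. Their products belong to green tissue, and roots in the dark of soil hold only traces of them, while roots on lit agar plates can green weakly.

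The summed expected counts ranged from 2663664 to 8201232 per root library and from 3423487 to 12896653 per shoot library. Levels are given as TPM, a transcript abundance scaled to the same total in each library and for transcript length, so that genes can be compared. The T-DNA target transcripts did not follow every label. BZIP28 was at 0 counts in all bz1728 libraries, but averaged 8.86 ± 2.22 TPM in the roots labelled nobiro6 against 43.8 ± 2.54 TPM in wt roots (SD, n = 4 each). In shoots labelled nobiro6 it averaged 13.4 ± 1.29 TPM, against 15.8 ± 2.48 TPM in wt shoots, so all comparisons of nobiro6 below are of libraries that go against that label. BZIP17 averaged 2.73 TPM in roots and 1.09 TPM in shoots labelled nobiro6, and 3.02 and 1.25 TPM in bz1728 roots and shoots, against 28.0 and 11.8 TPM in wt roots and shoots. TAF12B averaged 6.06 TPM in shoots and 32.7 TPM in roots labelled nbr6-t1, against 19.8 and 28.8 TPM in wt shoots and roots. TAF12 averaged 3.80 TPM in shoots and 14.2 TPM in roots labelled taf12-t1, against 5.66 and 7.72 TPM in wt shoots and roots. A transcript level does not show whether an insertion leaves the protein intact, so genotype names below stand for the libraries labelled so. Libraries of bz1728 stood apart: replicate 2 of the root and replicate 4 of the shoot, whose values are given beside the results they touch.

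In wild-type plants the 42 genes were shoot genes with a low but measured level in root. Together they held 0.194 ± 0.00734% of TPM in wt root against 8.57 ± 0.497% in wt shoot (SD, n = 4 each). PSBR (AT1G79040), a small protein beside the oxygen-evolving complex, was at 274, 256, 308 and 319 TPM in wt root, against 4814, 4656, 4748 and 4410 TPM in wt shoot. LHCB1.3 (AT1G29930), an LHCII gene, was at 125, 121, 116 and 112 TPM in wt root, against 10461, 10139, 9873 and 9390 TPM in wt shoot. The root and shoot libraries did not overlap for either gene. All 42 were called lower in wt root than in wt shoot (edgeR quasi-likelihood test, Benjamini-Hochberg adjusted p under 0.05), a direction in which 39.8% of 20015 genes tested were called.

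The ratio of root to shoot differed widely between the genes. LHCB4.3 (AT2G40100), a minor antenna gene also known as LHCB8, had in wt root 7.18% of its mean shoot TPM. PSBR had 6.21%, LHCB1.5 had 5.93% and LHCA5, a minor photosystem I antenna gene, had 5.49%. At the other end stood genes of the LHCII trimers, with 0.591% for LHCB2.2, 0.289% for LHCB1.2 and 0.105% for LHCB1.1. LHCB2.3 and LHCB1.4 had 0.0560% and 0.0176%, and LHCA6 was listed at 0 in all wt and bz1728 root libraries. LHCB1.5 therefore took 70.7 ± 0.931% of the TPM of the 5 LHCB1 genes in wt root, against 23.98 ± 0.549% in wt shoot (SD, n = 4 each). The near-identical copies LHCB1.1, LHCB1.2 and LHCB1.3 share transcript sequence, so their division of reads is uncertain. In whole organs, fewer green cells and less RNA per cell cannot be told apart.

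**Figure D1:**
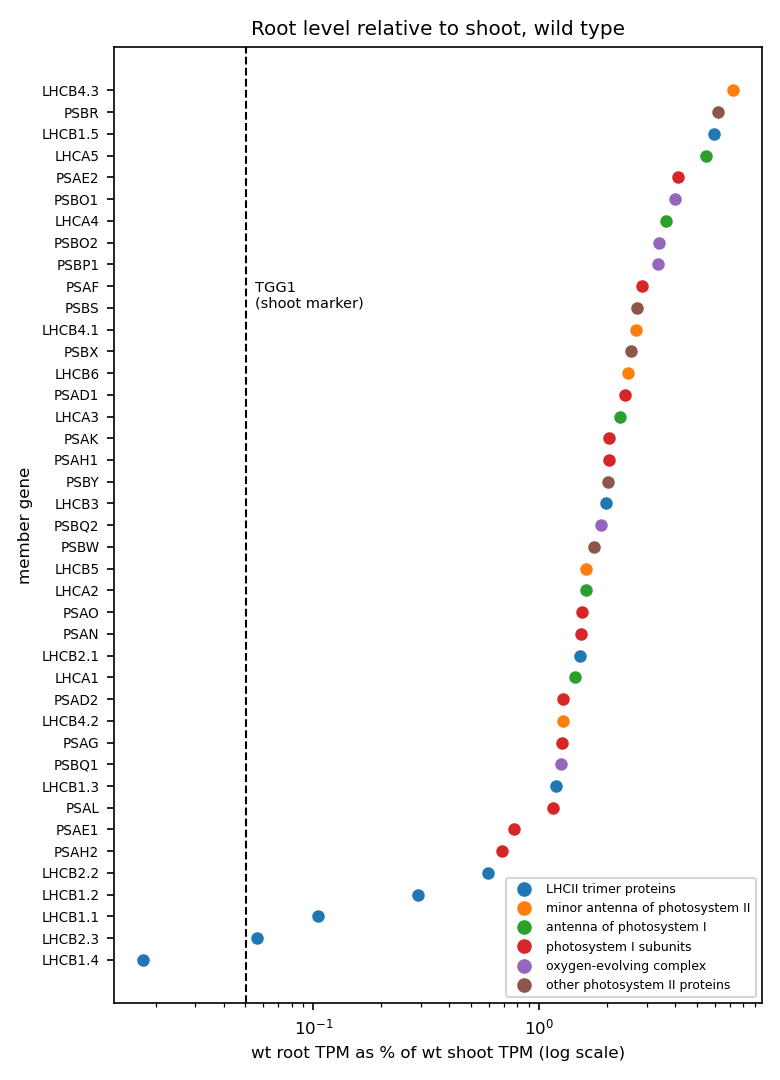
Mean TPM of each gene in wt root as a percentage of its mean TPM in wt shoot, on a log scale, for the 41 genes above 0 in wt root. Points are coloured by role, and the dashed line marks TGG1, a shoot marker, at 0.0503%. Of the 41, LHCB1.4 alone lies left of the line.

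Shoot tissue in the root samples was measured with 15 shoot markers that have no role in photosynthesis. Of these, 13 averaged under 1 TPM in every root group, and 7 to 10 were listed at 0. In wt shoot itself 2 of the 15 averaged under 1 TPM, and 1 was listed at 0. A marker that is low in shoot would fall under this cut in root even with some shoot tissue present. TGG1, a myrosinase of myrosin and guard cells, averaged 0.756 TPM in wt root against 1502 TPM in wt shoot, and YAB1 was listed at 0 in all 5 root groups. The markers differed in this share: summed, the 15 averaged 56.5 TPM in wt root against 2358 TPM in wt shoot. If the 42 genes had in wt root the share of their shoot level that TGG1 alone has, their sum would be 43.1 TPM. The sum measured was 1944 TPM. The corresponding figure in bz1728 root is 8.20 TPM of 1195 TPM measured, and in taf12-t1 root 39.5 TPM of 708 TPM measured. The exceptions among the markers were the epidermal genes PDF1 and CER1, which are also read in roots. How much of the root level of the 42 genes came from shoot tissue was not tested. The summed level of the 15 markers in root ran from 65.0 to 99.8 TPM in nobiro6, 11.6 to 29.1 TPM in bz1728, 59.3 to 109 TPM in nbr6-t1, 104 to 130 TPM in taf12-t1 and 41.4 to 64.5 TPM in wt.

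Among the genotypes, roots labelled taf12-t1 and bz1728 had less of the 42 transcripts than wt, and roots labelled nbr6-t1 had more. The sum was 0.196 ± 0.0119% of TPM in nobiro6 root, 0.120 ± 0.0254% in bz1728 root, 0.266 ± 0.0192% in nbr6-t1 root, 0.0708 ± 0.00508% in taf12-t1 root and 0.194 ± 0.00734% in wt root (SD, n = 4 each). No taf12-t1 or bz1728 root library reached the lowest wt value of 0.184%. No nbr6-t1 root library fell to the highest wt value of 0.202%. In shoots the sum was 8.83 ± 0.358% in nobiro6, 7.32 ± 0.818% in bz1728, 8.52 ± 0.410% in nbr6-t1, 6.38 ± 0.392% in taf12-t1 and 8.57 ± 0.497% in wt. The taf12-t1 shoot libraries lay between 5.84 and 6.74% and did not overlap the wt range of 8.11 to 9.08%. The bz1728 shoot libraries were at 6.84, 6.97, 6.94 and 8.55%, so replicate 4 lay inside the wt range.

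**Figure D2:**
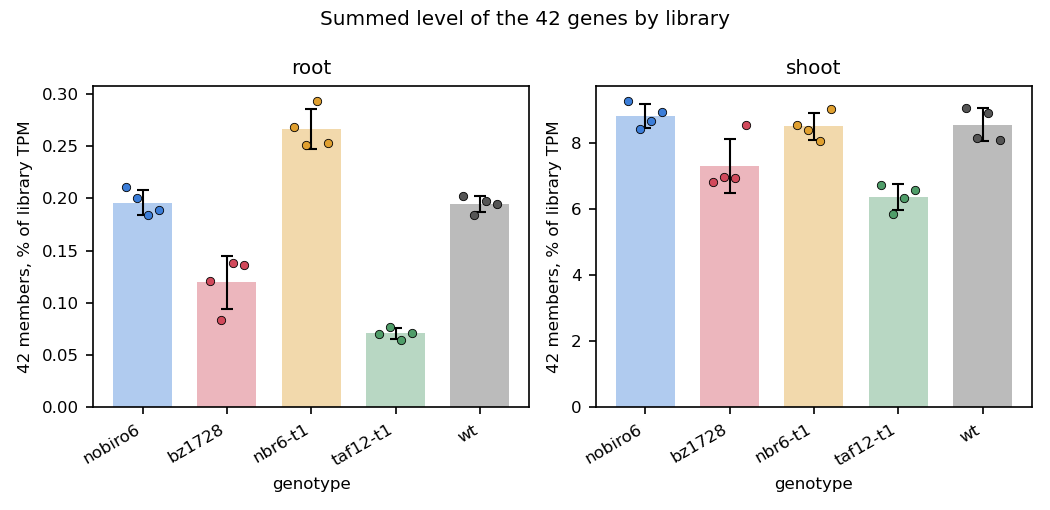
Summed TPM of the 42 genes as a percentage of library TPM, in root (left) and shoot (right), by genotype. Bars are means, error bars are SD over 4 libraries and points are libraries. In root, taf12-t1 lies between 0.0648 and 0.0772% and nbr6-t1 between 0.251 and 0.293%, on opposite sides of wt at 0.184 to 0.202%.

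In bz1728 roots most photosystem and antenna genes were lower than in wt roots, across all roles. Of the 39 genes with enough counts to test in root (all but LHCB1.4, LHCB2.3 and LHCA6), 30 were called lower and none higher. The background was 20.7% of 18745 genes called lower and 18.2% called higher, and the bz1728 and wt libraries did not overlap for 36.2% of them, against 23 of the 39. The median log2 fold change was −0.68, against 0.02 over all genes tested. By role, lower calls went to 3 of 7 LHCII trimer genes, 3 of 5 minor antenna genes, 4 of 5 LHCA genes, 10 of 12 photosystem I subunits, all 5 oxygen-evolving complex genes and all 5 other photosystem II genes. Without replicate 2, the lowest bz1728 root library at 0.0832% of TPM against 0.121 to 0.138% in the other 3, 24 were called lower and 1 higher.

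The 3 largest falls in bz1728 roots were those of LHCA5, PSBS and PSBQ1. LHCA5 (AT1G45474) was at 3.34, 2.37, 4.97 and 2.68 TPM in bz1728 root, against 7.64, 9.68, 11.6 and 9.56 TPM in wt root. Every bz1728 library lay below every wt library, and the log2 fold change was −1.54 ± 0.31 (approximate SE, edgeR adjusted p = 1.0e-04). PSBS (AT1G44575) was at 18.8, 7.995, 22.2 and 15.6 TPM in bz1728 root, against 45.5, 36.3, 44.0 and 45.0 TPM in wt root. The groups did not overlap, and its log2 fold change was −1.44 ± 0.20. PSBQ1 (AT4G21280), a lumenal protein of the oxygen-evolving complex, was at 8.84, 5.94, 14.4 and 10.4 TPM in bz1728 root, against 21.5, 23.2, 25.8 and 23.7 TPM in wt root, with a log2 fold change of −1.31 ± 0.21. Among the other genes, LHCB1.5 (−0.75), LHCB6 (−0.79), PSAK (−0.99), PSBP1 (−0.92) and PSBR (−1.08) were also called lower. The exceptions included LHCB2.2 at 0.51 ± 0.28 and LHCB1.1 at 0.44 ± 0.28, neither of which passed the test (adjusted p = 0.165 and 0.221). With the copies of each family summed, LHCB1 had −0.70 ± 0.13 (adjusted p = 3.8e-04) and LHCB2 had 0.07 ± 0.22 (adjusted p = 0.824). The summed shoot markers were also lower in bz1728 root. Of the 15 markers, only 2 had enough counts to test in root, and they went opposite ways, at −1.84 (called lower) and 0.43 (not called). The part of shoot tissue in these results was not tested.

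**Figure D3:**
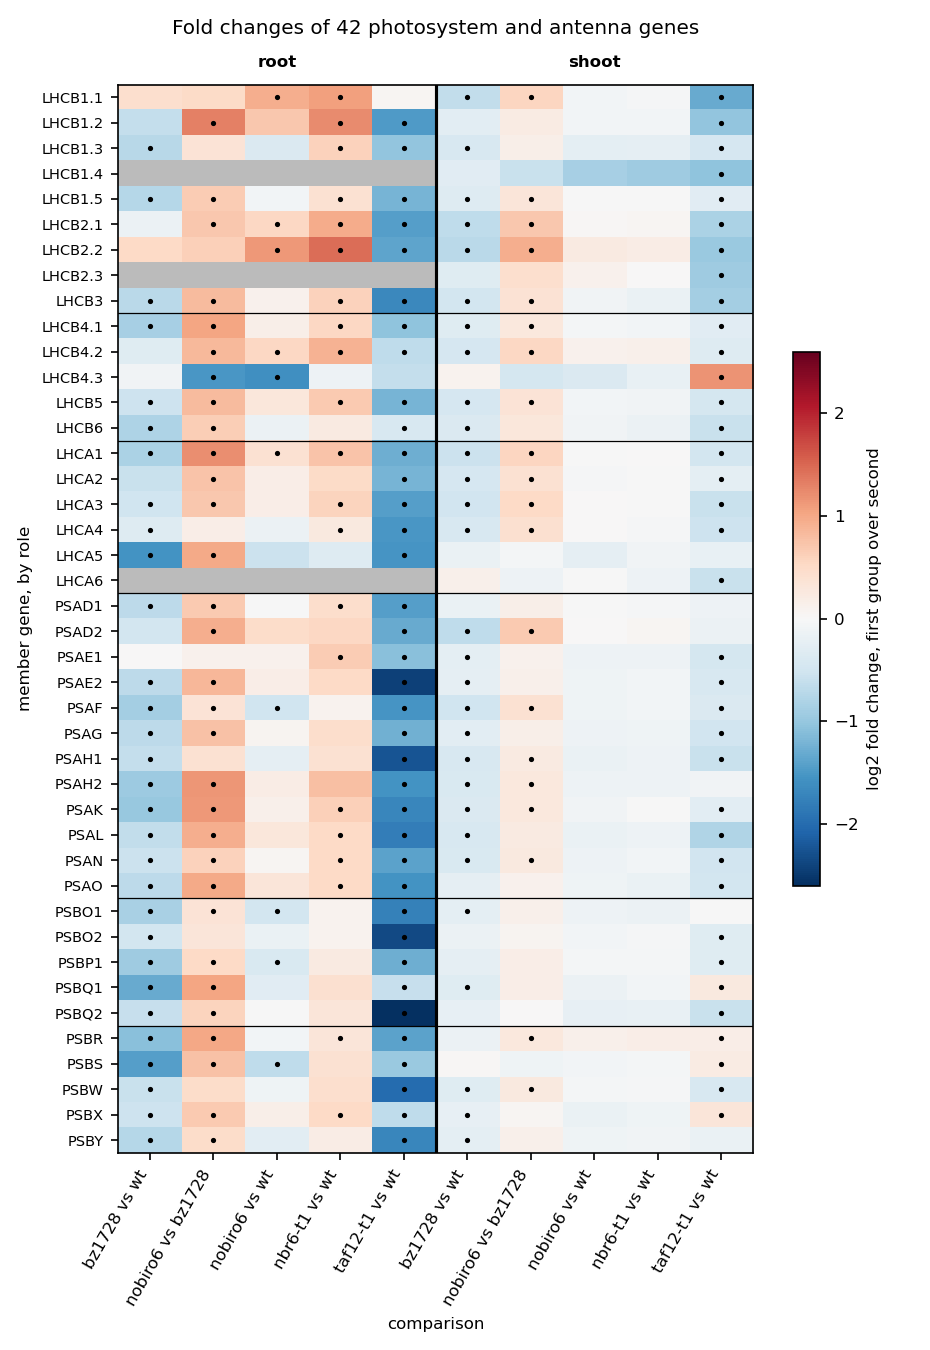
Log2 fold change of each of the 42 genes (rows, grouped by role) in 5 comparisons in root and 5 in shoot, first group over second. Black dots mark calls at adjusted p under 0.05 and grey cells were not tested. The taf12-t1 column in root holds 37 calls, all lower, and the nobiro6 and nbr6-t1 columns against wt in shoot hold none.

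In bz1728 shoots the falls were smaller and ran through the antenna and photosystem I genes. Of 42 genes, 29 were called lower and none higher, against 9.42% lower and 8.4% higher (17.8% in all) among 17382 genes tested. The bz1728 and wt libraries did not overlap for 10 of the 42, against 19.9% of all genes, a share near the background. The median log2 fold change was −0.32, against 0.00 over all genes. Lower calls went to 6 of 9 LHCII trimer genes, 4 of 5 minor antenna genes, 4 of 6 LHCA genes and 10 of 12 photosystem I subunits, but to 2 of 5 oxygen-evolving complex genes and 3 of 5 other photosystem II genes. LHCB2.2 (AT2G05070) was at 756, 849, 922 and 1306 TPM in bz1728 shoot, against 1523, 1352, 1564 and 1299 TPM in wt shoot. Its replicate 4 reached the lowest wt library on this scale, and the log2 fold change was −0.71 ± 0.14 (edgeR adjusted p = 0.0023). LHCB2.1 fell by 0.66 ± 0.09 on the log2 scale, as did PSAD2, a stromal photosystem I subunit near the ferredoxin site, by 0.66 ± 0.10. LHCB1.3 was at 7119, 7179, 7594 and 10590 TPM in bz1728 shoot, against 10461, 10139, 9873 and 9390 TPM in wt shoot. The count of lower calls depended on single libraries: it was 33 without bz1728 replicate 4, and 19 without replicate 1, 2 or 3. PSBS, the second largest fall in root, had 0.04 ± 0.07 in shoot and did not pass the test.

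The libraries labelled nobiro6, which hold BZIP28 transcript, were set against bz1728, which holds none. In roots labelled nobiro6, 30 of 39 genes were called higher than in bz1728 roots and 1 lower, against a background of 12.8% higher and 18.9% lower, and 28.2% of genes without overlap between the groups, against 20 of the 39. The median log2 fold change was 0.70, against 0.03 over all genes. The higher calls covered 4 of 7 LHCII trimer genes, 4 of 5 minor antenna genes, 4 of 5 LHCA genes, 10 of 12 photosystem I subunits, 4 of 5 oxygen-evolving complex genes and 4 of 5 other photosystem II genes. LHCB1.2 was at 12.1, 12.7, 12.0 and 10.6 TPM in nobiro6 root, against 4.84, 2.02, 7.18 and 5.60 TPM in bz1728 root. LHCA1, a photosystem I antenna gene, was at 45.7, 37.5, 42.3 and 49.4 TPM in nobiro6 root, against 19.2, 11.1, 23.1 and 20.7 TPM in bz1728 root. Neither pair of groups overlapped, and the log2 fold changes were 1.31 ± 0.32 and 1.22 ± 0.16. Without bz1728 root replicate 2, 22 genes were called higher. The summed shoot markers were also higher in nobiro6 root than in bz1728 root. The 2 markers tested went opposite ways, at 2.36 (called higher) and −0.75 (not called), and the part of shoot tissue was not tested.

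The gene called lower was LHCB4.3. It was at 1.23, 0.704, 2.57 and 0.878 TPM in nobiro6 root, against 4.23, 2.0, 4.44 and 5.10 TPM in bz1728 root and 4.204, 3.87, 4.03 and 3.97 TPM in wt root. The nobiro6 libraries lay below all wt libraries, and replicate 3 lay above the lowest bz1728 library. The log2 fold change was −1.51 ± 0.41 against bz1728. This call was absent when only the libraries of the nobiro6 and bz1728 groups entered the fit. These are low levels, a few TPM, and the difference is opposite in sign to those of the other 38 genes tested.

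Against wt roots, 5 genes were called higher in nobiro6 roots and 5 lower, with a background of 18.9% higher and 23.9% lower (42.8% in all), so each share of the 39 tested lay below that of all genes. The higher calls were LHCB1.1, LHCB2.1, LHCB2.2, LHCB4.2 and LHCA1. The lower calls were LHCB4.3, PSAF, PSBO1, PSBP1 and PSBS. PSBS was at 30.4, 29.2, 24.6 and 26.8 TPM in nobiro6 root, between 16.2 ± 6.07 TPM in bz1728 root and 42.7 ± 4.298 TPM in wt root (SD, n = 4 each). The number called higher was 9 with library totals in place of TMM factors, 3 with the LHCB1 and LHCB2 copies summed and 3 without nobiro6 replicate 1. Summed over its copies, LHCB1 had −0.13 ± 0.13 (edgeR adjusted p = 0.462) and LHCB2 had 0.72 ± 0.22 (adjusted p = 0.0127).

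In shoots labelled nobiro6, 20 of 42 genes were called higher than in bz1728 shoots and none lower, against 8.12% higher and 12.8% lower among all genes. The groups did not overlap for 10 of the 42, against 21.4% of all genes, again near the background. LHCB2.2 was at 2132, 1715, 1725 and 1772 TPM in nobiro6 shoot, all above the bz1728 values given above, with a log2 fold change of 0.94 ± 0.14. LHCB2.1 and PSAD2 had 0.69 ± 0.09 and 0.68 ± 0.10. None of the 5 oxygen-evolving complex genes was called. The count was 28 without bz1728 replicate 4, and 13 without bz1728 replicate 1, bz1728 replicate 2 or nobiro6 replicate 4. Against wt shoots, edgeR called 0 of the 42 genes in nobiro6, where 3.66% of all genes were called higher and 8.47% lower. At an unadjusted p under 0.05, 5 were lower and 0 higher. DESeq2 called 1 lower, and limma on log2(TPM + 1) called 2 higher. The shares over all genes at the unadjusted threshold and with these tools were not counted.

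Roots labelled nbr6-t1 had higher levels of antenna and photosystem I genes than wt roots. Of 39 genes, 21 were called higher and none lower, with 6.96% of all genes called higher and 13.5% lower, and 23.4% without overlap between the nbr6-t1 and wt libraries, against 24 of the 39. The median log2 fold change was 0.51, against 0.02 over all genes. The calls covered all 7 LHCII trimer genes tested, 3 of 5 minor antenna genes, 3 of 5 LHCA genes, 6 of 12 photosystem I subunits, 0 of 5 oxygen-evolving complex genes and 2 of 5 other photosystem II genes. At an unadjusted p under 0.05, 31 of the 39 were higher, a threshold at which the share over all genes was not counted. LHCB2.2 was at 22.5, 21.0, 26.0 and 27.3 TPM in nbr6-t1 root, against 7.55, 7.30, 8.44 and 10.6 TPM in wt root. The lowest nbr6-t1 library was above the highest wt library, and the log2 fold change of 1.44 ± 0.26 was the largest of the set. LHCB4.2 (AT3G08940), a minor antenna gene, was at 36.0, 27.4, 38.3 and 31.9 TPM in nbr6-t1 root, against 14.95, 18.4, 18.0 and 17.6 TPM in wt root. It also stood clear of wt, at 0.91 ± 0.14 (edgeR adjusted p = 9.6e-06). By contrast PSBO1 was at 126, 126, 114 and 123 TPM in nbr6-t1 root and at 120, 98.6, 110 and 123 TPM in wt root, with 0.09 ± 0.11. The summed shoot markers ran from 59.3 to 109 TPM in nbr6-t1 root, against 41.4 to 64.5 TPM in wt root. The 2 markers tested had 0.64 and −0.32, neither of them called, and the part of shoot tissue was not tested.

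In shoots labelled nbr6-t1, edgeR called 0 of the 42 genes against wt, beside 1.56% higher and 5.94% lower (7.5% in all) among all genes. At an unadjusted p under 0.05, 1 was higher and 1 lower. DESeq2 and limma each called 1 higher and 1 lower. Here too, shares over all genes were counted only for the edgeR calls at adjusted p. LHCB1.4 had the largest difference, at 224, 164, 131 and 267 TPM in nbr6-t1 shoot against 426, 384, 314 and 317 TPM in wt shoot. The groups did not overlap, but the log2 fold change of −0.93 ± 0.28 missed the threshold (edgeR adjusted p = 0.055).

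The deepest changes were in roots labelled taf12-t1. Of 39 genes, 37 were called lower than in wt roots and none higher, with a background of 19.8% lower and 19.5% higher, and 35.6% of genes without overlap between the taf12-t1 and wt libraries, against 37 of the 39. The median log2 fold change was −1.40, against 0.00 over all genes. All 5 LHCA genes, all 12 photosystem I subunits, all 5 oxygen-evolving complex genes and all 5 other photosystem II genes that were tested fell, with 6 of 7 LHCII trimer genes and 4 of 5 minor antenna genes. LHCB1.1 (0.04 ± 0.32) and LHCB4.3 (−0.62 ± 0.37) did not pass the test, and both are low in root. The summed shoot markers were higher in taf12-t1 root than in wt root, averaging 115 TPM against 56.5 TPM. Only PDF1 and CER1 among them averaged 1 TPM or more in either group. The 2 markers with enough counts to test were both called higher, at 1.07 and 2.37. TGG1 averaged 0.756 TPM in wt root and 0.771 TPM in taf12-t1 root, and YAB1 was listed at 0 in both. The part of shoot tissue in these results was not tested.

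The largest falls were those of PSBQ2, PSAE2 and PSBO2. PSBQ2 (AT4G05180) was at 3.36, 4.04, 1.23 and 3.98 TPM in taf12-t1 root, against 20.6, 23.5, 18.2 and 24.2 TPM in wt root. Every taf12-t1 library was far below every wt library, and the log2 fold change was −2.6 ± 0.27 (edgeR adjusted p = 8.2e-09). PSAE2 (AT2G20260), a stromal subunit of photosystem I, was at 4.60, 8.91, 4.999 and 3.25 TPM in taf12-t1 root, against 47.6, 30.5, 26.4 and 25.9 TPM in wt root, at −2.43 ± 0.32. PSBO2 (AT3G50820), a copy of the manganese-stabilising protein, was at 3.77, 6.13, 8.26 and 7.60 TPM in taf12-t1 root, against 36.1, 37.0, 35.6 and 38.2 TPM in wt root, at −2.35 ± 0.17. These values set the lower end of a range whose upper end among called genes was LHCB6 at −0.42 ± 0.12.

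The genes of each role most abundant in wt shoot fell as well in taf12-t1 root. LHCB1.3 was at 59.0, 61.7, 32.9 and 56.2 TPM in taf12-t1 root, against 125, 121, 116 and 112 TPM in wt root. These libraries did not overlap, and the log2 fold change was −1.03 ± 0.22. LHCB5, a minor antenna protein, was at 19.0, 24.8, 10.4 and 16.5 TPM in taf12-t1 root, against 48.3, 48.0, 45.8 and 38.7 TPM in wt root. LHCA4 was at 31.7, 34.4, 29.1 and 25.1 TPM in taf12-t1 root, against 88.0, 92.2, 92.9 and 99.0 TPM in wt root. PSAK, a photosystem I subunit next to the antenna, was at 19.9, 11.8, 12.6 and 16.4 TPM in taf12-t1 root, against 68.8, 47.4, 62.1 and 47.5 TPM in wt root. The taf12-t1 and wt libraries were also separate for LHCB5, LHCA4 and PSAK, with log2 fold changes of −1.21 for LHCB5, −1.51 for LHCA4 and −1.69 for PSAK. PSBO1 was at 32.3, 27.8, 27.5 and 32.0 TPM in taf12-t1 root, against 120, 98.6, 110 and 123 TPM in wt root. PSBR, the most abundant after LHCB1.5, was at 85.0, 110, 119 and 88.7 TPM in taf12-t1 root, against 274, 256, 308 and 319 TPM in wt root, at −1.39 ± 0.12.

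In shoots labelled taf12-t1 the genes divided. Of 42 genes, 31 were called lower and 5 higher than in wt shoots, beside 20.4% lower and 20.3% higher among all genes. The taf12-t1 and wt libraries did not overlap for 34 of the 42, against 36.7% of all genes. The median log2 fold change was −0.42, against −0.02 over all genes. All 9 LHCII trimer genes were lower, with a median of −0.92. So were 4 of 5 minor antenna genes, 5 of 6 LHCA genes, 9 of 12 photosystem I subunits, 3 of 5 oxygen-evolving complex genes and 1 of 5 other photosystem II genes. LHCB1.1 was at 1751, 1323, 1433 and 1475 TPM in taf12-t1 shoot, against 4107, 3355, 4365 and 3705 TPM in wt shoot. The groups were far apart, at −1.32 ± 0.18 (edgeR adjusted p = 2.5e-05). LHCB1.4, a scarcer LHCII gene, was at 231, 147, 143 and 149 TPM in taf12-t1 shoot, against 426, 384, 314 and 317 TPM in wt shoot, at −1.04 ± 0.28.

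The 5 genes called higher were LHCB4.3, PSBQ1, PSBR, PSBS and PSBX. LHCB4.3 was at 103, 121, 136 and 126 TPM in taf12-t1 shoot, against 50.9, 46.1, 63.9 and 62.9 TPM in wt shoot. All taf12-t1 libraries were above all wt libraries, and the log2 fold change was 1.17 ± 0.17 (edgeR adjusted p = 4.2e-05). The other 4 were smaller: 0.32 ± 0.07 for PSBX, a small photosystem II subunit, 0.26 ± 0.09 for PSBQ1, 0.20 ± 0.07 for PSBS and 0.16 ± 0.07 for PSBR. PSBX was at 2988, 2837, 3023 and 3061 TPM in taf12-t1 shoot, against 2538, 2447, 2553 and 2416 TPM in wt shoot, again without overlap. The number called higher was 2 without wt shoot replicate 2 or taf12-t1 shoot replicate 4, and 3 without taf12-t1 shoot replicate 1. It was also 2 with library totals in place of TMM factors.

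Whether a genotype acted differently in the organs was tested as the root minus shoot difference of the log2 fold changes, over all 40 libraries. For taf12-t1 against wt, 31 of 42 genes were more negative in root and 1 (LHCB1.1) more positive, against 10.5% and 9.8% of 20015 genes. The LHCB1.1 call was absent without wt shoot replicate 1 or 3, wt root replicate 3 or 4, taf12-t1 shoot replicate 2 or taf12-t1 root replicate 4. PSBO2 and PSBR differed by −2.01 ± 0.18 and −1.52 ± 0.14 (edgeR adjusted p = 1.3e-10 for each). PSBR fell in root and rose in shoot, as did PSBQ1, PSBS and PSBX, and another 27 genes were lower in both organs. The share of all genes called in both organs was not counted. For bz1728 against wt, 11 genes were more negative in root and 1 (LHCB2.2) more positive, against 10.9% and 12% (23% in all) of all genes. PSBS led, at −1.43 ± 0.19 (adjusted p = 3.5e-07), followed by PSBR at −0.88 ± 0.13. Here 22 genes were lower in both organs, again with no share over all genes counted. LHCB2.2 had 0.51 in root and −0.71 in shoot. The lower count was 6 without bz1728 root replicate 2 or bz1728 shoot replicate 4, and 7 without wt shoot replicate 2, wt root replicate 1 or wt root replicate 3. The higher count ran from 0 without bz1728 root replicate 3 to 4 without bz1728 shoot replicate 4.

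For nobiro6 against bz1728, 14 genes were more positive in root and none more negative, against 8.74% and 7.1% of all genes. PSBR differed by 0.76 ± 0.14 and PSBX by 0.68 ± 0.13. Higher calls in both organs went to 15 genes, also with no share over all genes counted. Without bz1728 root replicate 2 the number more positive in root was 7. For nbr6-t1 against wt, 16 were more positive in root and none more negative, against 1.77% and 0.63% (2.4% in all) of all genes. PSBX (0.69 ± 0.12) and LHCB4.2 (0.83 ± 0.16) had the smallest adjusted p, at 4.7e-04 and 0.0019. The number more positive was 9 with limma on log2(TPM + 1), and 10 without wt shoot replicate 3 or wt root replicate 2.

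**Figure D4:**
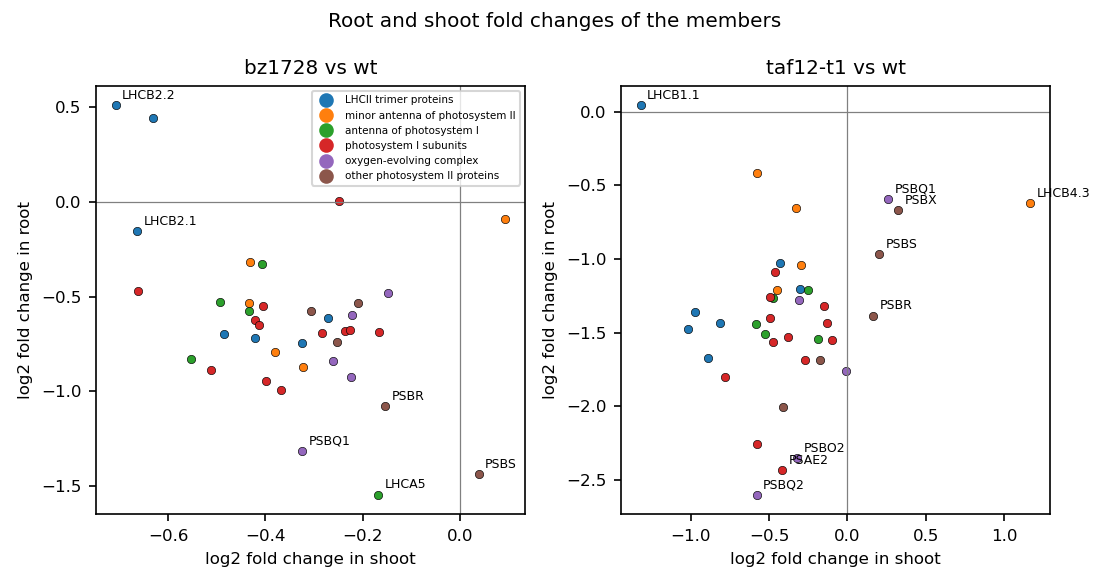
Log2 fold change in root (vertical) against shoot (horizontal) for the genes tested in both organs, bz1728 over wt on the left and taf12-t1 over wt on the right, coloured by role. PSBS at −1.44 in root and 0.04 in shoot lies low on the left panel, and LHCB4.3, PSBQ1, PSBR, PSBS and PSBX lie right of 0 on the right panel.

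The copies of a protein were not always read in the same proportion. PSBQ1 supplied 77.8, 81.9, 93.0 and 73.9% of PSBQ TPM in taf12-t1 root, against 51.1, 49.6, 58.7 and 49.5% in wt root. In taf12-t1 shoot its share was 74.7 ± 1.45%, against 62.1 ± 1.84% in wt shoot (SD, n = 4 each), so the taf12-t1 shares were higher without overlap in both organs. In bz1728 root PSBQ1 supplied 40.03 ± 6.80%, against 52.2 ± 4.35% in wt root, again without overlap. PSBO1 supplied 82.3 ± 5.30% of PSBO TPM in taf12-t1 root, against 75.4 ± 1.81% in wt root.

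PSAE1 supplied 55.5 ± 17.7% of PSAE TPM in taf12-t1 root, against 35.4 ± 9.10% in wt root, and these groups overlapped. In shoots it supplied between 72.8 and 73.5% in every genotype mean, which makes PSAE2 the leading copy in wt root and PSAE1 in wt shoot. PSAH1, a subunit at the LHCII docking side of photosystem I, supplied 45.1 ± 15.9% of PSAH TPM in taf12-t1 root, against 53.9 ± 11.4% in wt root, with overlap. Within LHCB4, LHCB4.1 supplied 53.3 ± 4.53% in bz1728 root and 57.2 ± 6.59% in taf12-t1 root, against 63.9 ± 1.93% in wt root. LHCB4.2 supplied 37.05 ± 5.46% in bz1728 root and 34.5 ± 6.60% in taf12-t1 root, against 29.25 ± 2.24% in wt root. LHCB4.3 supplied 5.38 ± 0.692% in taf12-t1 shoot, against 1.98 ± 0.319% in wt shoot.

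**Figure D5:**
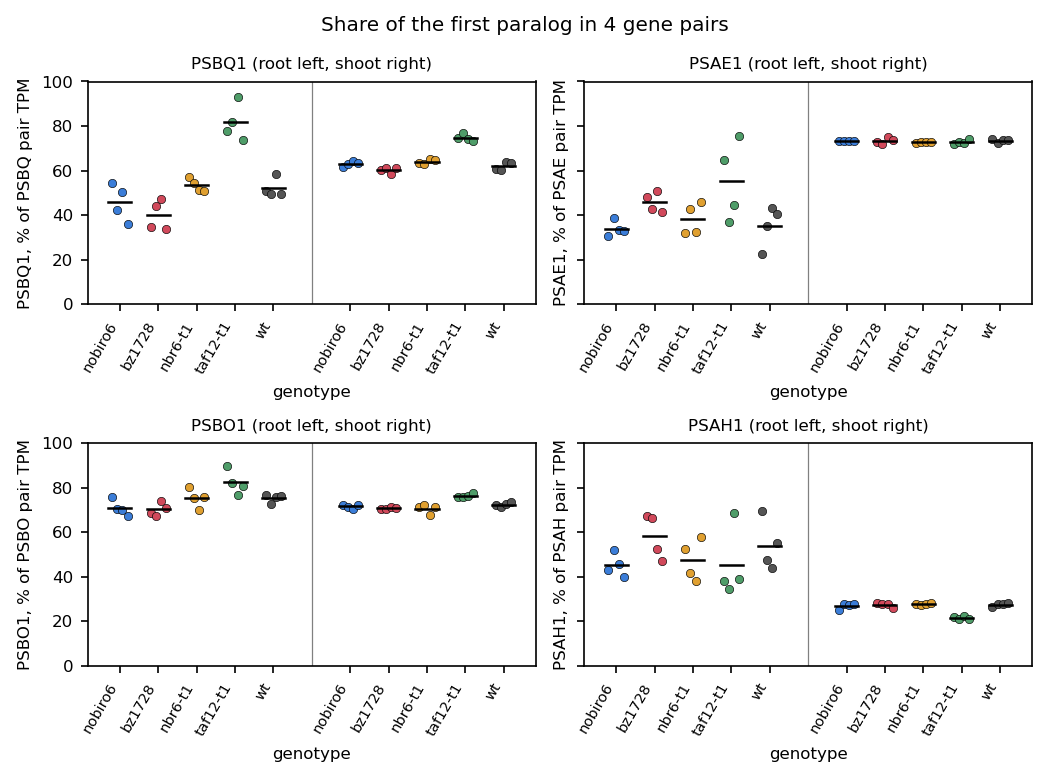
Share of PSBQ1, PSAE1, PSBO1 and PSAH1 in the TPM of their gene pair, as a percentage, by genotype in root (left of each panel) and shoot (right). Points are libraries and lines are means of 4. PSBQ1 in taf12-t1 root lies at 73.9 to 93.0%, above wt root at 49.5 to 58.7%, while PSAE1 and PSAH1 in root spread widely within groups.

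The promoters of the copies that moved apart are shown to let their sequence be compared. They are the 150 bases before the start of the transcript whose length matches the deposited one, from the RefSeq copy of build TAIR10.1. All 42 genes had such a transcript, as did 27443 of the 27445 loci found there. Capitals mark the G-box CACGTG, the I-box GATAAG and the CCA1-binding core AAAATCT, searched on both strands. PSBQ1 lies at chr4:11334252-11334401 on the plus strand, PSBQ2 at chr4:2673244-2673393 on the minus strand, LHCB4.1 at chr5:208716-208865 on the plus strand and LHCB4.3 at chr2:16745478-16745627 on the plus strand.
PSBQ1: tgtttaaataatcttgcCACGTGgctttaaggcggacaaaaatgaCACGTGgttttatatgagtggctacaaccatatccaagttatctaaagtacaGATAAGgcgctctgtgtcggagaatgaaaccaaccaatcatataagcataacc
PSBQ2: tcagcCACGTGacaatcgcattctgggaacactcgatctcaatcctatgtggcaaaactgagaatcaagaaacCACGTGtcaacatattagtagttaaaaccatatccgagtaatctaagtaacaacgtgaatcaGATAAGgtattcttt
LHCB4.1: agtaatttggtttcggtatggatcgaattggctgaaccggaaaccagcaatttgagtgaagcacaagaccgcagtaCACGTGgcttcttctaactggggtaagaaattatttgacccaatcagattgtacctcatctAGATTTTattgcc
LHCB4.3: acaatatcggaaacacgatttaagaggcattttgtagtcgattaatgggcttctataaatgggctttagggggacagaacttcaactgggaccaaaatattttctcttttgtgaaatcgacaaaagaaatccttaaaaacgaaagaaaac

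The PSBQ1 and PSBQ2 windows hold the same motifs, a pair of G-boxes and an I-box. In taf12-t1 root PSBQ2 had −2.6 and PSBQ1 −0.59 ± 0.20. The LHCB4.1 window holds a G-box and a CCA1-binding core, and the LHCB4.3 window holds none of the 3 motifs. That lack is not particular to LHCB4.3: over 250 bases LHCB1.3, LHCB3 and PSBO2, called lower in taf12-t1 root, also held none. Any link between motifs and fold changes was not tested. Over the 250 bases before the start, the G-box was found in 8 of 42 promoters (19%) against 6.62% of 27442 promoters. The I-box was found in 10 (23.8%) against 12.3%, and the CCA1-binding core in 12 (28.6%) against 16.5%. These counts describe the windows and do not show that a factor binds there.

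Neighbouring pathways were counted beside the 42 genes. In bz1728 root, 9 of 12 chlorophyll synthesis genes were called lower than in wt root (median log2 fold change −0.79), as were 10 of 12 nuclear genes of electron transport and ATP synthase (median −0.77) and 5 of 14 carbon fixation genes (median −0.52). No gene of these 3 lists was called higher. Over all genes tested, 20.7% were called lower and 18.2% higher in bz1728 root. The lists included CHLH, a subunit of magnesium chelatase, at −0.81, FD2, the leaf-type ferredoxin, at −1.34, and SBPASE, an enzyme of the Calvin cycle, at −1.36. In nobiro6 root against bz1728 root, 5 of 12, 9 of 12 and 5 of 14 genes of the same lists were called higher and none lower. The shares over all genes were 12.8% higher and 18.9% lower. In nbr6-t1 root against wt root, 0 of 12, 3 of 12 and 3 of 14 were called higher and none lower. The shares over all genes were 6.96% higher and 13.5% lower.

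In taf12-t1 root the same 3 lists had 8 of 12, 10 of 12 and 8 of 14 genes called lower than in wt root and none higher. Their medians were −0.42, −0.91 and −0.83, and over all genes 19.8% were called lower and 19.5% higher. In taf12-t1 shoot, carbon fixation went the other way from the antenna: 8 of 14 genes were called higher than in wt shoot and none lower (median 0.24). Among all genes tested in shoot, 20.3% were called higher and 20.4% lower, and these shares apply to each shoot list in this paragraph. RBCS1A, a small subunit of Rubisco, had 0.50 ± 0.08 and GAPA1 had 0.53 ± 0.07. Electron transport had 5 of 12 higher and 4 lower in taf12-t1 shoot, and chlorophyll synthesis had 2 of 12 higher and 8 lower. PORB, a light-dependent protochlorophyllide reductase, was at 281, 318, 345 and 335 TPM in taf12-t1 shoot, against 75.8, 108, 58.6 and 58.7 TPM in wt shoot. PORB rose without overlap, by 2.15 ± 0.23 (edgeR adjusted p = 2.8e-06). Of 6 antenna-related light-stress genes, 3 rose, ELIP1 and ELIP2 among them at 1.95 and 1.76, and 2 fell in taf12-t1 shoot.

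Among 12 regulators of greening, 4 of the 8 tested were called lower in taf12-t1 root than in wt root and none higher, and 2 of 8 were lower and 1 higher in bz1728 root. Over all genes, 19.8% were called lower in taf12-t1 root, and 20.7% lower and 18.2% higher in bz1728 root, so the bz1728 counts lay near the background. GLK2, an activator of photosystem genes, was at 5.55, 6.85, 5.26 and 7.19 TPM in taf12-t1 root, against 10.06, 13.3, 14.1 and 12.2 TPM in wt root, with −0.85 ± 0.17. In nbr6-t1 root, where antenna genes rose, GLK2 averaged 8.69 ± 1.01 TPM and was called lower, against 12.4 ± 1.75 TPM in wt root (SD, n = 4 each). It was lower still in nobiro6 root, at 5.38 ± 0.946 TPM. These GLK2 values were chosen after they had been seen. In taf12-t1 shoot, 5 of the 12 regulators were called lower and 2 higher, against 20.4% and 20.3% of all genes. The 12 log2 fold changes ran from −1.39 to 0.59. Among these genes GLK1 had −0.91 ± 0.12 and CCA1, a clock factor that binds LHCB promoters, had −1.04 ± 0.07. Of 7 genes for antenna import, insertion and state transitions, 5 were lower in bz1728 root and 4 in taf12-t1 root, and none higher. Among them cpSRP43, which carries antenna proteins through the stroma, had −1.97 ± 0.23 in taf12-t1 root. The ferredoxin FD3, whose list of 3 non-photosynthetic plastid redox genes stood for root plastids, rose in taf12-t1 root by 0.65 ± 0.09, while the other two did not pass the test. Of 10 root markers, 3 were higher and 4 lower in taf12-t1 root, and 4 were higher and 3 lower in bz1728 root.

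Some of the genes share transcript sequence with neighbours or copies, so their counts depend on how reads were divided. Of the 31-base words of a transcript, 59.9% for PSAG, 49.9% for PSAH1, 39.9% for LHCB2.3, 38.6% for LHCB1.3, 31.2% for LHCB1.1 and 30.9% for PSAE1 also occurred in another transcript. PSAG, PSAH1, LHCB2.3 and PSAE1 shared most of these with a neighbouring locus, and the LHCB1 and LHCB2 genes with each other. Summed over the copies, LHCB1 and LHCB2 were lower in taf12-t1 root (−1.13 ± 0.14 and −1.32 ± 0.28) and in taf12-t1 shoot (−0.61 ± 0.12 and −0.89 ± 0.12) than in wt. Both were higher in nbr6-t1 root than in wt root, at 0.49 ± 0.13 and 1.12 ± 0.21. For PSBQ1, PSBQ2, PSBO1, PSBO2, PSBR, PSBS, PSBX and LHCB4.3 the share was 2.52% or less.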

How the data were processed

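RNA of 40 libraries was sequenced after mRNA library preparation, and reads were trimmed with Trimmomatic 0.39 and quantified with kallisto 0.44.0, per the submitters' processing notes. The estimated counts deposited by the authors are reads that kallisto assigned to each transcript, with no scaling for depth, per the file headers. The deposited TPM values were made by kallisto from these per effective length, and lengths stand beside them, per the file headers. For the genome build and the strand setting, the sources used here give nothing. Reads were divided among similar copies by kallisto's model, so values of near-identical genes depend on it.

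Expected counts were rounded to whole numbers. Groups were compared with edgeR 4.0.16 (R 4.3.3) by the quasi-likelihood test with TMM factors and filterByExpr (minimum count 10, total 15), fitted on the 20 libraries of a tissue, or on all 40 for root minus shoot differences. P-values were adjusted by Benjamini-Hochberg over all genes tested, with 0.05 as the threshold. Standard errors are approximate, from the fold change and its F statistic. Levels are deposited TPM. The fit was tested on simulated data. DESeq2 1.42.0, limma 3.58.1 on log2(TPM + 1), other scalings, no filter, a replicate block and leaving out each library were alternatives.

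Libraries are given singly for the gene of each role with the highest wt shoot TPM, the 3 largest called changes per comparison, the 2 smallest adjusted p per root minus shoot difference, and pairs whose share moved by over 10 percentage points. The genes and lists were chosen with earlier results of these data known.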

Additional observations from a re-analysis of the deposited data

Results flagged for a closer look

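Of 230 sets of 4 libraries examined, 18 had a library far from the other 3, where chance marks about 1 in 20. Replicate 4 of bz1728 shoot was such a library in 7 of them. Its 42 genes held 8.55% of TPM, against 6.84 to 6.97% in the other 3 libraries. It had 10590 TPM of LHCB1.3 (others 7119 to 7594), 2951 TPM of LHCB1.2 (2065 to 2105), 1979 TPM of LHCA1 (1497 to 1570), 3864 TPM of LHCB1.1 (2257 to 2455), 522 TPM of LHCB1.4 (244 to 254) and 1240 TPM of LHCB4.2 (1049 to 1078).

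Other single libraries stood apart for 1 or 2 genes. Replicate 1 of nobiro6 root had 68.3 TPM of LHCB5 (53.3 to 54.7) and 46.7 TPM of PSAE2 (33.9 to 35.0), and replicate 1 of nobiro6 shoot had 2132 TPM of LHCB2.2 (1715 to 1772). Replicate 2 of bz1728 root had 63.0 TPM of LHCA4 (78.4 to 80.5). Replicate 4 of nbr6-t1 shoot had 3042 TPM of PSAK (2763 to 2810) and 4724 TPM of LHCB1.1 (3650 to 3718). Replicate 1 of taf12-t1 shoot had 1094 TPM of LHCB2.1 (941 to 956) and 231 TPM of LHCB1.4 (143 to 149), and replicate 4 of taf12-t1 root had 6.79 TPM of LHCB1.1 (2.41 to 2.79). LHCB1.4 was at 0.288 TPM in replicate 3 of nobiro6 root and 0.254 TPM in replicate 3 of wt root, each from 1 read and at 0 in the other 3 libraries.

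Effects that differed between root and shoot, as root minus shoot differences of the log2 fold change, were −1.43 for PSBS and −0.88 for PSBR in bz1728 against wt. They were 0.76 for PSBR and 0.68 for PSBX in nobiro6 against bz1728. They were 0.69 for PSBX and 0.83 for LHCB4.2 in nbr6-t1 against wt, and −2.01 for PSBO2 and −1.52 for PSBR in taf12-t1 against wt.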

How the results depend on the processing

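Over the settings that kept all libraries, 221 summary values stayed within the limits set for a count or the replicate spread and 29 moved. Apart from these, 14 paralog shares in wt moved beyond the replicate spread with expected counts in place of TPM. Expected counts are not scaled for length. These 14 were most of the shares checked, which took 1 copy of each family in wt root and in wt shoot. PSAH1 went from 53.9 to 72.2% of its pair in wt root and from 27.55 to 46.5% in wt shoot. PSBQ1 went from 62.1 to 54.3% in wt shoot. With library totals only, nobiro6 against wt had 9 higher calls in root and 1 in shoot, nbr6-t1 against wt had 1 higher in shoot and taf12-t1 against wt had 2 higher in shoot. With LHCB1 and LHCB2 copies summed, nobiro6 against wt had 3 higher in root, and the taf12-t1 root minus shoot difference had 0 higher, as it had with no filter. With only the libraries of the groups compared, nobiro6 against bz1728 had 0 lower in root, nobiro6 against wt had 1 lower in shoot and the bz1728 root minus shoot difference had 0 higher. DESeq2 gave 1 lower in shoot for nobiro6 against bz1728 and against wt, 1 higher and 1 lower for nbr6-t1 shoot, and 4 and 2 higher for the bz1728 and taf12-t1 root minus shoot differences. Limma gave 2 higher for bz1728 shoot, 1 lower for nobiro6 against bz1728 in shoot, 2 higher for nobiro6 against wt in shoot, 1 higher and 1 lower for nbr6-t1 shoot, and 2, 9 and 4 higher for the bz1728, nbr6-t1 and taf12-t1 root minus shoot differences. With CPM in place of TPM, the log2 ratio of the summed level was −1.32 for taf12-t1 root (−1.46 in TPM) and −0.08 for nobiro6 against wt in shoot (0.04 in TPM). The causes were not tested.

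The labels state no pairing. Same-numbered libraries had correlations of −0.0863 to 0.122 in root and −0.317 to 0.278 in shoot. Between root and shoot of the same genotype they had −0.0821 to 0.11. Differently numbered libraries had −0.163 to 0.152 in root, −0.502 to 0.351 in shoot and −0.112 to 0.13 between the organs. With 4 libraries per group, these values cannot show whether libraries were paired. With the replicate block, nobiro6 against bz1728 and nbr6-t1 against wt each had 1 lower in shoot and the bz1728 root minus shoot difference had 3 higher.

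Leaving out each library in turn, calls in root ran from 0 to 1 higher and 24 to 33 lower (bz1728 against wt), 22 to 33 higher (nobiro6 against bz1728), 3 to 5 higher and 5 to 6 lower (nobiro6 against wt), 15 to 19 higher (nbr6-t1) and 36 to 38 lower (taf12-t1). In shoot they ran from 19 to 33 lower (bz1728 against wt), 13 to 28 higher and 0 to 1 lower (nobiro6 against bz1728), 0 to 2 lower (nobiro6 against wt), 0 to 1 lower (nbr6-t1) and 2 to 5 higher and 29 to 33 lower (taf12-t1). For root minus shoot differences they ran from 0 to 4 higher and 6 to 12 lower (bz1728), 7 to 20 higher (nobiro6 against bz1728), 10 to 18 higher (nbr6-t1) and 0 to 2 higher and 29 to 31 lower (taf12-t1).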
